A study of Rattus norvegicus with 18 samples.

Results

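The genes described here encode the NFκB transcription factor subunits Nfkb1, Nfkb2, Rel and Rela, the IκB inhibitors Nfkbia, Nfkbib and Nfkbie, the nuclear IκB proteins Nfkbiz and Bcl3, and the kinase Ikbke. They were chosen by name through the gene name or accession that the array files give for each probe. All 10 genes were on the array, with 14 of its 41012 probes, among 35291 gene names in all. Every member had at least 1 probe that passed the filter on dim signals, as did 27210 gene names in total.

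Proximal segments of the sciatic nerve came from male Sprague-Dawley rats, all adult, in which a piece of the nerve had been cut out of the left hind limb 0, 0.5, 1, 3, 6 or 9 h before, with 3 arrays at each time-point and 18 in all. The 0 h group underwent the same resection and is the reference for every later time-point. The labels give 30 rats in 6 groups and the methods 36, and neither says whether rats were pooled for an array, so the P-values measure the spread between arrays, which may in part be technical. Values are log2 signals of Agilent arrays of 1 colour relative to the 75th percentile of each array, given for each array in the order of its replicate number, and means are given ± SD with n = 3.

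NFκB is a family of dimers that rest in the cytoplasm bound to IκB proteins. Receptors for TNF, interleukin-1 and bacterial products activate IκB kinases, the inhibitors are degraded, and the dimers enter the nucleus, where they switch on cytokine, chemokine and survival genes. The same dimers switch on the gene for IκBα, Nfkbia, whose new protein takes them back out of the nucleus, the best known negative feedback of the pathway. In a cut nerve the pathway is known for the cytokines and chemokines made by Schwann cells and resident macrophages within hours.

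The promoters are shown because the feedback depends on binding sites for NFκB next to the genes' own starts. In the RefSeq promoter table used here, on build GRCr8 of the rat genome, 9 of the 10 members were matched, all but Ikbke. Both strands of the 250 bases before each start were searched for the κB consensus, in which 3 guanines and a purine are followed by any 2 bases, 2 pyrimidines and 2 cytosines. It was found in 6 of the 9 promoters, those of Nfkb2, Rel, Nfkbia, Nfkbie, Nfkbiz and Bcl3, and in 6.33% of 33469 promoters of the same length. The promoters of Nfkb1, Rela and Nfkbib held no match. The members' windows were 57.2% to 80.4% guanine and cytosine, against a median of 51.2% for all promoters. A match describes letters only, and binding was not measured. The windows of the first and the largest responders and of Nfkb2 are printed from 5′ to 3′ on the coding strand, with the match in capitals.
Nfkbia: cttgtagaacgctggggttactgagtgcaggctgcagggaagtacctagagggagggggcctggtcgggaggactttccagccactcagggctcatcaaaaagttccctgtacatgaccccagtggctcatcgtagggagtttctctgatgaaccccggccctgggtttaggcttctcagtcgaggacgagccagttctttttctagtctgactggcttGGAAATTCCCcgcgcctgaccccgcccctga
Nfkbiz: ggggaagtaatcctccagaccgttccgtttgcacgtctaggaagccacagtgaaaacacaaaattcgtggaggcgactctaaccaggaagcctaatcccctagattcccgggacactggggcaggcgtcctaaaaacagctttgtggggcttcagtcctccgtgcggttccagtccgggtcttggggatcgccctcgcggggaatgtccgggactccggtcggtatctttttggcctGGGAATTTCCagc
Bcl3: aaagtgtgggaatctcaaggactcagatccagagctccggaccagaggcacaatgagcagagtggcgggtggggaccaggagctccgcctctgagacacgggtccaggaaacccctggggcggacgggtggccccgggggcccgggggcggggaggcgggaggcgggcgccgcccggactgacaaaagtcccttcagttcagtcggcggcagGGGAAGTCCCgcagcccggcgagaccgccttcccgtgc
Nfkb2: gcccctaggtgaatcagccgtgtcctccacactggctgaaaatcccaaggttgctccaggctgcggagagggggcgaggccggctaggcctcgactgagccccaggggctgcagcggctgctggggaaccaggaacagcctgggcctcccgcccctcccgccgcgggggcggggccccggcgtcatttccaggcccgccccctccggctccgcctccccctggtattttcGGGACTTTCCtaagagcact
The Nfkbia window is chr6:78597073-78597322 on the minus strand, the Nfkbiz window chr11:58251471-58251720 on the plus strand, the Bcl3 window chr1:88613556-88613805 on the minus strand and the Nfkb2 window chr1:255108124-255108373 on the plus strand. Nfkbia and Nfkbiz share the same 10 bases, GGGAATTTCC, which are centred 8 bases before the start of Nfkbiz and, on the opposite strand, 26 bases before that of Nfkbia. Distances are to the centre of a match throughout. The Bcl3 match GGGAAGTCCC lies 33 bases and the Nfkb2 match GGGACTTTCC 15 bases before the start. The match of Nfkbie, GGGGGATTCC, lies 159 bases before its start, and Rel has matches at 77 bases, GGGAAATCCC, and at 214 bases, GGGAGCTCCC, which overlap further matches on the opposite strand.

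The tissue was checked against markers of nerve and of other cell types, whose part in the results was not tested. In bulk tissue, fewer cells of a type and less RNA per cell cannot be told apart. All 14 Schwann cell markers were well above background on every array, and their summed level lay between 911 and 1084 at 0 h and between 721 and 821 at 9 h, in units of the 75th percentile, with 1 called higher and 5 lower there. The sum of the 10 neutrophil markers lay between 0.359 and 0.580 on the arrays of 0 h, between 1.97 and 4.31 at 0.5 h, between 7.22 and 21.6 at 3 h and between 13.9 and 21.5 at 6 h. At 0 h S100a8, S100a9, Csf3r and Mpo were above background on all 3 arrays and Ngp, Fpr1, Mmp8 and Elane on none, and Ngp and Fpr1 were so on 1 and 2 of the 18 arrays. The 11 macrophage markers summed to 172 to 201 at 0 h, to 216 to 220 at 3 h and to 153 to 204 at 9 h, mostly through C1qb, while 3 of 10 tested were called higher and 1 lower at 9 h, with Cd14 at 1.82 ± 0.10 at 0 h and 3.97 ± 0.33 at 9 h on the log2 scale. The 5 lymphocyte markers with values on every array summed to 0.301 to 0.393 on the arrays of 0 h, to at least 0.493 on every later array and to 0.658 to 1.27 at 9 h. The 6 fibroblast markers summed to 1299 to 1387 at 0 h and 901 to 959 at 9 h, with 5 of 6 called lower there, and the 8 endothelial markers to 37.6 to 43.5 and 28.1 to 30.7, with 1 called higher and 2 lower. The 6 adipocyte markers summed to 47.5 to 83.3 at 0 h, 85.5 to 123 at 0.5 h and 51.1 to 121 at 1 h, with 0 of 5 tested called at 0.5 h. The 7 skeletal muscle markers summed to 1480 on replicate 1 of 0 h and to between 1.75 and 414 on the other 17 arrays. Of the 18 arrays, 4 stood apart, replicate 1 of 0 h by its muscle markers, and replicate 3 of 3 h, replicate 1 of 6 h and replicate 3 of 9 h, with 82.3%, 93.5% and 86.4% of spots well above background against 65.9% to 80.3% on the others. Replicate 3 of 1 h was not among them but had the lowest limma array weight, 0.224 against 0.323 to 4.73 for the others. Without it, 9 members were called over the time-points in place of 7, with Nfkb2 and Rela added.

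**Figure D1:**
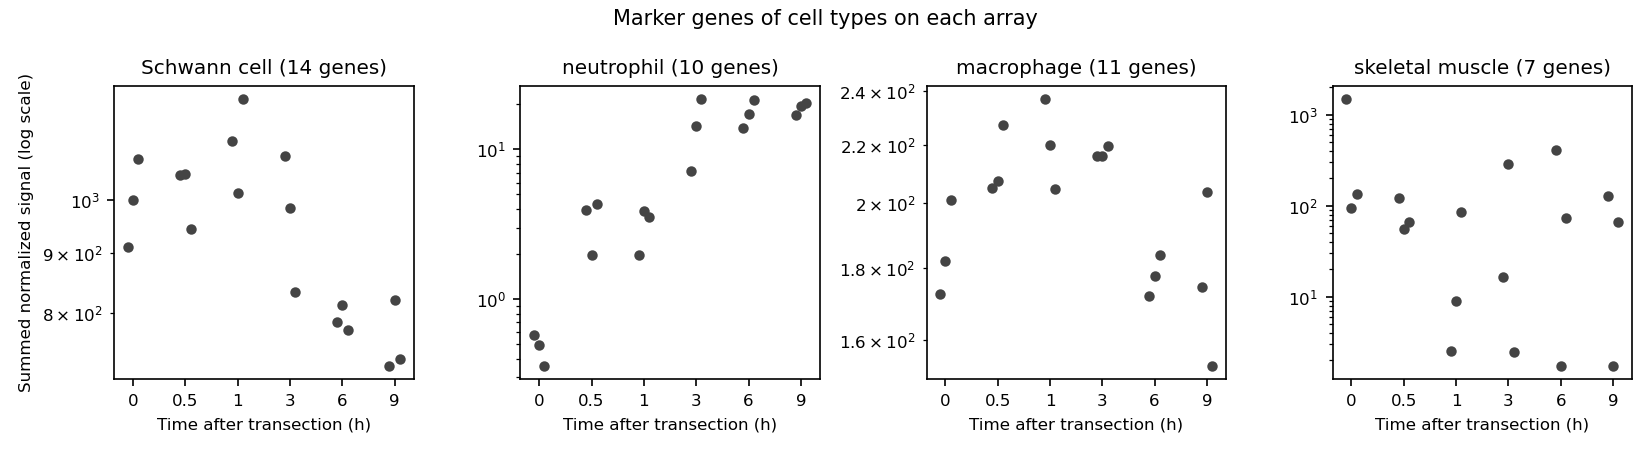
Summed linear level of marker genes of each cell type (log axis, in units of the 75th percentile of an array) on each of the 18 arrays by time after resection (time-points evenly spaced, not to scale). The neutrophil sums rise from below 0.6 at 0 h to above 13 at 6 h, while the Schwann cell sums stay between 721 and 1220.

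Over the 6 time-points, 7 of the 10 members passed limma's F-test at an unadjusted P-value under 0.01 and an adjusted P-value under 0.05, the threshold meant by called or rose and fell throughout. The share among all tested gene names was 36.3%. The called members were Nfkb1, Rel, Nfkbia, Nfkbib, Nfkbie, Nfkbiz and Bcl3. The members called against 0 h were all higher than at 0 h. They were Nfkbia and Nfkbiz at 0.5 h, these and Rel at 1 h, and Nfkb1, Rel, Nfkbia, Nfkbiz and Bcl3 at 3 h. At 6 h they were Nfkb1, Rel, Nfkbie, Nfkbiz and Bcl3, and at 9 h all these with Nfkb2 and Nfkbib. The counts of 2, 3, 5, 5 and 7 of 10 stand beside shares of 4.7%, 3.89%, 7.7%, 13.1% and 16.9% of all tested gene names that were called higher at the 5 later time-points in order. The median change of the members was 0.06, 0.41, 0.42, 0.43 and 0.57 in the same order, against medians between 0.00 and 0.02 over all genes. Scanning took place on 1 day for the 0 h and 0.5 h groups and on another for the 1 h to 6 h groups and 2 arrays of 9 h, with the other array of 9 h on a day of its own, so that time and scan day cannot be told apart in contrasts of 1 h to 9 h with 0 h. Contrasts of the later time-points with 1 h are therefore given for the members called.

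**Figure D2:**
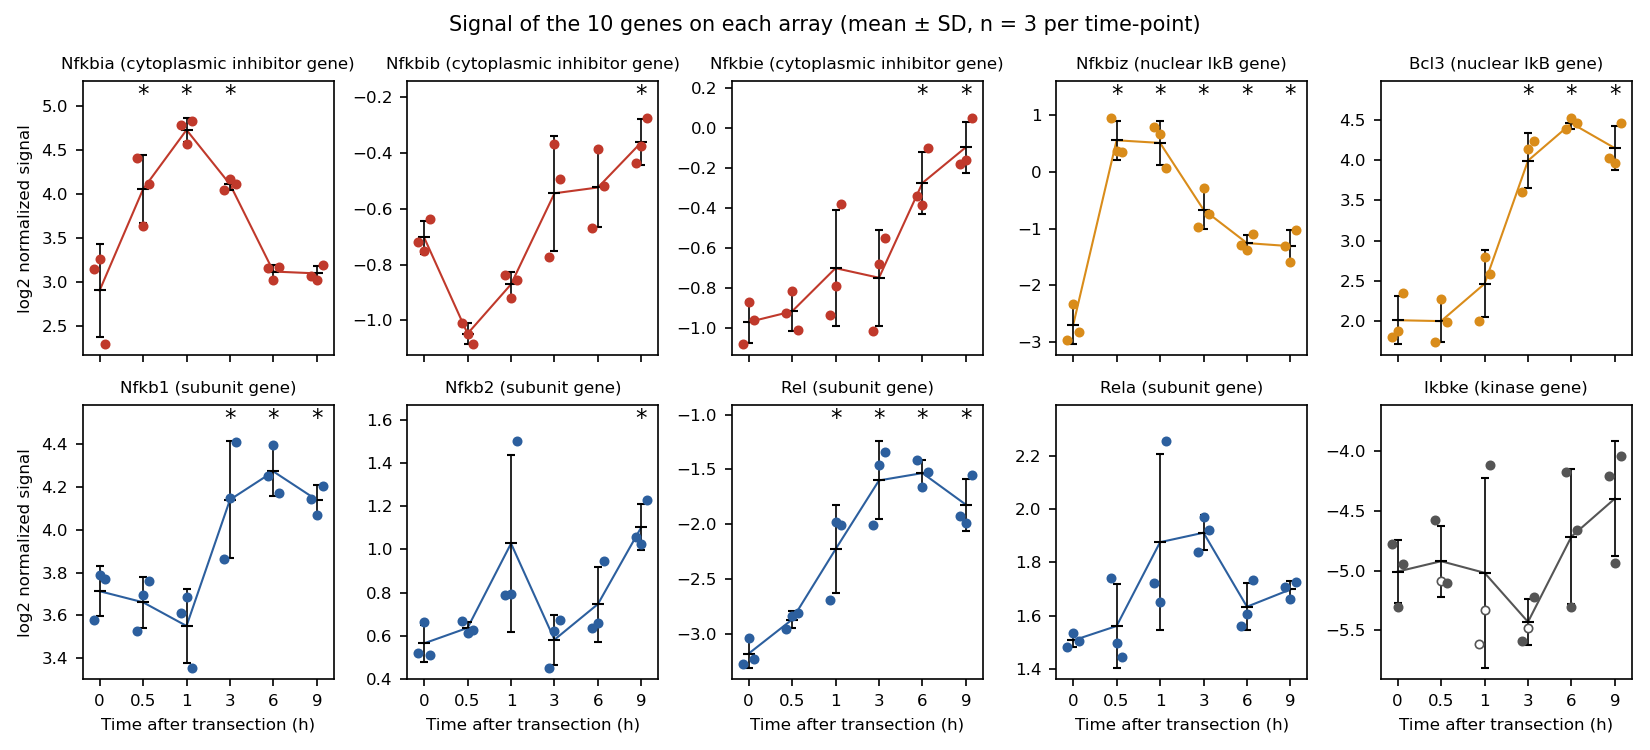
Log2 normalized signal of the 10 members on each of the 18 arrays (points), with mean ± SD of 3 arrays at each time after resection (time-points evenly spaced, not to scale). Open circles mark arrays where the probe was not well above background and asterisks the time-points called against 0 h. Nfkbia was highest at 1 h and Nfkbiz at 0.5 h, while Bcl3, Rel and Nfkb1 had their highest means at 6 h.

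Nfkbia, which encodes IκBα, rose by 0.5 h and was not called against 0 h at 6 h or 9 h. Its signal (probe at chr6:75730438-75730497 of rn4, minus strand) was 3.15, 3.27 and 2.29 on the 3 arrays of 0 h, 4.41, 3.64 and 4.12 on the arrays of 0.5 h, and 4.79, 4.57 and 4.83 at 1 h. It was 4.05, 4.17 and 4.11 at 3 h, 3.16, 3.03 and 3.17 on the arrays of 6 h, and 3.07, 3.03 and 3.19 at 9 h. The mean was 2.90 ± 0.53 at 0 h and 4.73 ± 0.14 at 1 h. Every array of 0.5 h, 1 h and 3 h lay above every array of 0 h, and the arrays of 6 h and 9 h lay within the range of 0 h. The change from 0 h amounted to 1.15 ± 0.22 (SE; 2.22-fold, adjusted P-value 0.00981) at 0.5 h, 1.83 (3.54-fold, adjusted P-value 0.000332) at 1 h and 1.21 (2.31-fold, adjusted P-value 0.00263) at 3 h. The change at 6 h was 0.22, with a 95% confidence interval from -0.25 to 0.69. From 1 h, Nfkbia fell by 1.61 to 6 h (3.05-fold lower, adjusted P-value 0.000193) and by 1.63 to 9 h (3.1-fold lower, adjusted P-value 0.000134). The fall of 0.99 from 3 h to 6 h was called (adjusted P-value 0.0216), as were 2.7% of all gene names in that direction. That call was lost without any 1 of 5 arrays, replicates 1 and 2 of 3 h and the 3 replicates of 6 h, with changes from -1.02 to -0.95 and adjusted P-values up to 0.0689. Fitted on the 6 arrays of 0 h and 0.5 h alone, the change of 1.15 at 0.5 h had an adjusted P-value of 0.121, and under normexp background correction the changes of Nfkbia at 0.5 h and 3 h were 1.15 and 0.95, with adjusted P-values of 0.0784 and 0.0558.

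Nfkbiz, which encodes the nuclear protein IκBζ needed for a second wave of NFκB targets such as Il6, showed the largest change of the 10 members. Its signal (chr11:45810786-45810845, plus strand) was -2.97, -2.33 and -2.82 at 0 h, 0.95, 0.36 and 0.35 on the arrays of 0.5 h, and 0.79, 0.67 and 0.07 at 1 h. It was -0.97, -0.29 and -0.74 at 3 h, -1.30, -1.38 and -1.09 on the arrays of 6 h, and -1.32, -1.60 and -1.02 at 9 h. The mean was -2.70 ± 0.33 at 0 h and 0.56 ± 0.34 at 0.5 h. The groups of 0.5 h and 1 h overlapped each other and lay above all other arrays, and every later array still lay above those of 0 h. The rise was 3.26 ± 0.25 (SE; 9.58-fold, adjusted P-value 1.13e-05) at 0.5 h, and 1.39 (2.63-fold, adjusted P-value 0.000851) was left at 9 h. Against 1 h it fell by 1.18 at 3 h (adjusted P-value 0.00838), by 1.77 at 6 h and by 1.82 at 9 h (3.53-fold lower, adjusted P-value 0.000142). A second, dimmer probe (chr11:45796641-45796700) rose by 2.09 at 0.5 h (4.27-fold, adjusted P-value 0.00273) and was called at 1 h and 3 h as well, while its changes of 0.95 at 6 h and 0.66 at 9 h were not called. Of its falls from 1 h, that of 1.22 to 9 h was called (adjusted P-value 0.0121), and the changes of -0.82 to 3 h and -0.93 to 6 h were not. The fall of the reported probe from 1 h to 3 h was also lost under normexp (-1.06, adjusted P-value 0.0537) and on the 6 arrays alone (adjusted P-value 0.0867).

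Bcl3, the other nuclear IκB protein, which binds dimers of the Nfkb1 and Nfkb2 products, rose later. Its signal (chr1:79122832-79122891, minus strand) was 1.81, 1.89 and 2.35 at 0 h, 1.75, 2.27 and 1.99 on the arrays of 0.5 h, and 2.01, 2.80 and 2.59 at 1 h. It was 3.60, 4.14 and 4.24 at 3 h, 4.38, 4.52 and 4.46 on the arrays of 6 h, and 4.02, 3.96 and 4.46 at 9 h. The mean was 2.02 ± 0.30 at 0 h and 4.46 ± 0.07 at 6 h. The groups of 0 h, 0.5 h and 1 h overlapped and all lay below the 9 arrays of 3 h to 9 h. The change from 0 h was -0.01 at 0.5 h, 0.45 at 1 h (adjusted P-value 0.255), 1.98 at 3 h (3.94-fold, adjusted P-value 9.19e-05), 2.44 ± 0.23 (SE; 5.43-fold, adjusted P-value 8.55e-06) at 6 h and 2.13 at 9 h. Against 1 h, on the same scan day, it was 1.53 higher at 3 h (2.88-fold, adjusted P-value 0.00112) and 1.99 higher at 6 h (3.97-fold, adjusted P-value 6.52e-05). The call at 3 h against 1 h was lost in a limma fit on the 6 arrays alone (adjusted P-value 0.0567). The summed level of the neutrophil markers was also highest from 3 h on, although that of Mpo alone was highest at 1 h, and their part in the later rises of Bcl3, Rel, Nfkb1 and Nfkbie was not tested.

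Among the subunits, Rel, the c-Rel protein best known from lymphocytes and myeloid cells, changed most. Its signal (chr14:104645730-104645789, minus strand) was -3.28, -3.03 and -3.23 at 0 h, -2.96, -2.84 and -2.81 on the arrays of 0.5 h, and -2.69, -1.98 and -2.01 at 1 h. It was -2.01, -1.46 and -1.34 at 3 h, -1.42, -1.66 and -1.53 on the arrays of 6 h, and -1.93, -1.99 and -1.55 at 9 h. The mean was -3.18 ± 0.13 at 0 h and -1.53 ± 0.12 at 6 h. All arrays from 0.5 h on lay above those of 0 h, and the 1 h group overlapped the 3 h and 9 h groups but not the 6 h group. The change was 0.31 at 0.5 h (adjusted P-value 0.395), 0.95 at 1 h (1.93-fold, adjusted P-value 0.0145), 1.58 at 3 h (2.99-fold, adjusted P-value 0.000172), 1.65 at 6 h (3.13-fold, adjusted P-value 6.87e-05) and 1.36 at 9 h. Against 1 h, its changes of 0.63 at 3 h (adjusted P-value 0.0616) and 0.41 at 9 h (adjusted P-value 0.154) were not called, although leaving out replicate 2 of 1 h or replicate 1 of 3 h brought the change at 3 h past the threshold, at 0.75 (adjusted P-value 0.0453) and 0.83 (adjusted P-value 0.0195). The call of Rel at 1 h was lost without replicate 1 or 3 of 0 h or replicate 3 of 1 h, with changes of 0.84 to 0.93 and adjusted P-values of 0.0516 to 0.0616, and under normexp, with 1.03 (adjusted P-value 0.159). Its rise of 0.69 from 1 h to 6 h (adjusted P-value 0.0201) was lost without replicate 1 of 1 h (0.46, adjusted P-value 0.0868) or replicate 1 or 3 of 6 h, without the 4 arrays that stood apart, in fits on the 6 arrays or on 1 scan day alone, and under normexp (0.29, adjusted P-value 0.455).

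Nfkb1, which encodes p105 and its product p50, was called from 3 h on, with changes under 2-fold. Its signal (chr2:233091120-233091179, minus strand) was 3.58, 3.79 and 3.77 at 0 h, 3.53, 3.70 and 3.76 on the arrays of 0.5 h, and 3.61, 3.68 and 3.35 at 1 h. It was 3.86, 4.15 and 4.41 at 3 h, 4.25, 4.40 and 4.17 on the arrays of 6 h, and 4.14, 4.07 and 4.21 at 9 h. The arrays of 3 h to 9 h all lay above those of 0 h to 1 h. The change from 0 h was 0.43 at 3 h (1.35-fold, adjusted P-value 0.0471), 0.56 at 6 h (1.47-fold, adjusted P-value 0.00701) and 0.43 at 9 h (1.34-fold, adjusted P-value 0.0235), and against 1 h it was 0.59, 0.72 and 0.59. A second probe (chr2:233091704-233091763) gave 0.49, 0.49 and 0.52 at 3 h, 6 h and 9 h against 0 h, and the gene was called at 3 h in all 18 fits that left out 1 array, although the reported probe lost that call in 15 of them. Without the 4 arrays that stood apart, the reported probe's change at 3 h was 0.23 (adjusted P-value 0.359), and under normexp background correction it was 0.20, less than the median of 0.44 over all probes.

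The other subunits changed less. Nfkb2, which encodes p100 and its product p52, had signals (chr1:251526647-251526839, plus strand) of 0.52, 0.66 and 0.51 at 0 h, 0.79, 0.80 and 1.50 on the arrays of 1 h, and 1.06, 1.03 and 1.23 at 9 h. Replicate 3 of 1 h lay above all other 17 arrays, and the 9 h group lay above that of 0 h with no overlap. The change at 9 h was 0.54 (1.45-fold, adjusted P-value 0.0182), and a dimmer second probe gave 1.22 (2.32-fold, adjusted P-value 0.0104). Against 1 h, the changes at 9 h were 0.08 (adjusted P-value 0.772) on the reported probe and 0.57 (adjusted P-value 0.218) on the second, and neither was called. The reported probe was no longer called without replicate 1 or 3 of 0 h or replicate 3 of 9 h, with changes of 0.48 to 0.52, and the gene stayed called in 16 of the 18 fits that left out 1 array. Shifted to the median of each array instead, its change was 0.37 (adjusted P-value 0.0917). Rela, which encodes the p65 subunit of the most common dimer, had signals (chr1:208272349-208272408, plus strand) of 1.48, 1.53 and 1.50 at 0 h and of 1.84, 1.97 and 1.92 at 3 h. These groups did not overlap, and the change of 0.40 at 3 h was its largest (95% confidence interval 0.12 to 0.69), with an adjusted P-value of 0.0567, so that Rela was not called at any time-point. This change passed the threshold without replicate 2 or 3 of 1 h (adjusted P-values 0.044 and 0.00583), with array weights, with a trended and robust prior and among probes above background on all arrays. A dimmer second probe gave 0.32 at 3 h (adjusted P-value 0.641).

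The inhibitors other than IκBα were called later. Nfkbie, which encodes IκBε, a slower and NFκB-inducible inhibitor, had signals (chr9:11044255-11044314, minus strand) of -1.08, -0.87 and -0.96 at 0 h, -0.34, -0.38 and -0.10 on the arrays of 6 h, and -0.18, -0.16 and 0.05 at 9 h. All arrays of 6 h and 9 h lay above those of 0 h. The change was 0.70 at 6 h (1.62-fold, adjusted P-value 0.00401) and 0.88 at 9 h (1.83-fold, adjusted P-value 0.000683), and both calls held in each of the 18 fits that left out 1 array. Against 1 h, Nfkbie was 0.61 higher at 9 h (1.52-fold, adjusted P-value 0.00849), while the 0.43 of 6 h was not called (adjusted P-value 0.0506). The change at 6 h was called without replicate 3 of 1 h (0.59) or replicate 1 of 3 h (0.43), and that at 9 h was not called without the 4 arrays that stood apart (0.53), on the arrays of 1 scan day (adjusted P-value 0.0951), on its 6 arrays alone (adjusted P-value 0.0748) or under normexp (adjusted P-value 0.093). Under normexp the 6 h call of Nfkbie was lost (0.60, adjusted P-value 0.0742). Nfkbib, which encodes IκBβ, not known as a strong NFκB target, had signals (chr1:83866200-83866259, minus strand) of -0.72, -0.75 and -0.64 at 0 h, -1.01, -1.05 and -1.08 on the arrays of 0.5 h, and -0.44, -0.37 and -0.27 at 9 h. The 0.5 h group lay below and the 9 h group above that of 0 h, with no overlap. At 0.5 h the change was -0.34 and missed the threshold (adjusted P-value 0.0665), whereas the 0.34 of 9 h passed it (1.27-fold, adjusted P-value 0.02). The change at 0.5 h passed in 3 of 35 alternatives, a shift to the median, array weights and leaving out replicate 1 of 3 h. The call at 9 h was lost without replicate 1 or 2 of 0 h or replicate 2 or 3 of 9 h, with changes of 0.30 to 0.35, and after a shift to the median, with 0.17 (adjusted P-value 0.344). Against 1 h, Nfkbib was 0.51 higher at 9 h (1.42-fold, adjusted P-value 0.00236), a call lost under normexp (0.32, adjusted P-value 0.179). Its smaller rise of 0.35 from 1 h to 6 h (adjusted P-value 0.0236) was lost on leaving out the second array of 1 h, or the second or the third array of 6 h, with changes of 0.28 to 0.34, in fits on the 6 arrays or on 1 scan day alone, after a shift to the median and under normexp (0.18, adjusted P-value 0.359).

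Ikbke, which encodes IKKε, a kinase of the IκB kinase family itself induced by NFκB, was dim, well above background on 14 of the 18 arrays. Its signals (chr13:44206251-44208792, minus strand, the span of a probe in more than 1 block) were -4.78, -5.30 and -4.94 at 0 h and -4.21, -4.94 and -4.04 at 9 h. These groups overlapped, and the largest change, 0.61 at 9 h, had a 95% confidence interval from -0.18 to 1.40 and an adjusted P-value of 0.211.

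**Figure D3:**
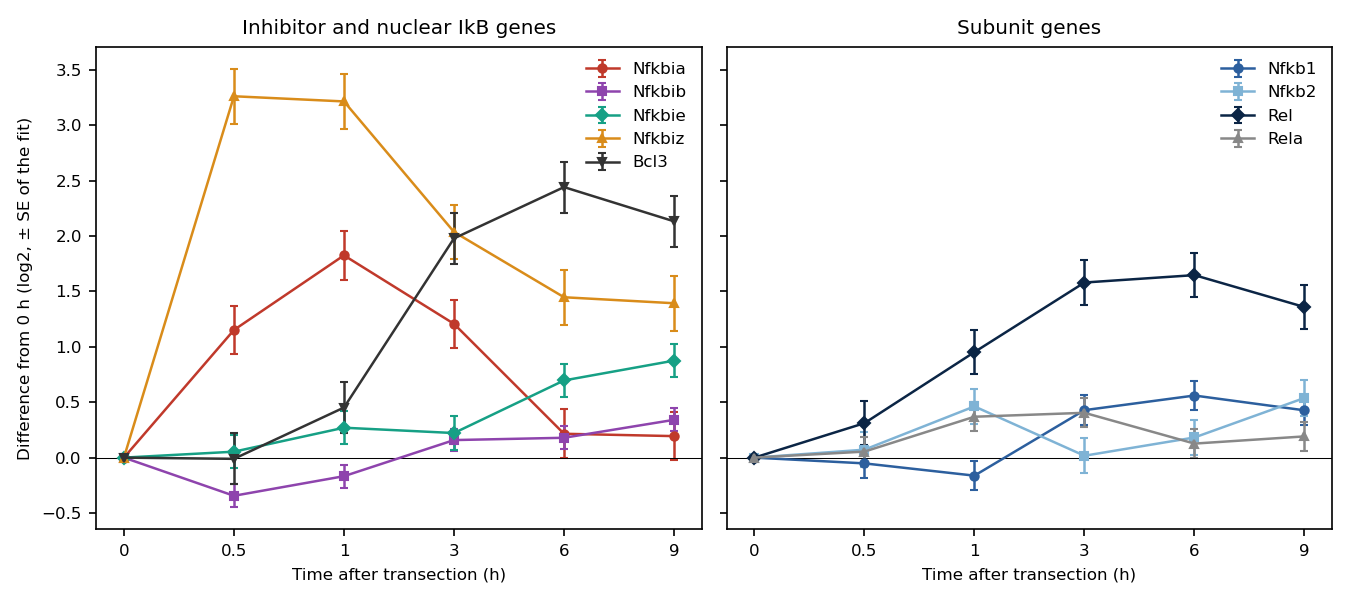
Change in log2 normalized signal from 0 h of each member's reported probe at the 5 later time-points (evenly spaced, not to scale), for the 9 members other than Ikbke, with bars for the standard error of the fit. Nfkbiz and Nfkbia are furthest from 0 at 0.5 h and 1 h, and Bcl3 is highest from 6 h on.

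Steps between time-points, other than those from 0 h, were counted in the same way. From 0.5 h to 1 h, 0 of 10 members were called and 0% of all gene names (limma), with 4 members and 3986 gene names at an unadjusted P-value under 0.05. From 1 h to 3 h, 3 of 10 members were called, Nfkb1 and Bcl3 higher and Nfkbiz lower, beside 11% of all gene names. From 1 h to 6 h, 6 of 10 were called beside 25.7% of all, with Nfkb1, Rel, Nfkbib and Bcl3 higher and Nfkbia and Nfkbiz lower. From 1 h to 9 h, 6 of 10 were called beside 26.8%, with Nfkb1, Nfkbib, Nfkbie and Bcl3 higher and Nfkbia and Nfkbiz lower. From 6 h to 9 h, 0 of 10 members and 0.0147% of all gene names were called (limma), with 1 member and 3504 gene names at an unadjusted P-value under 0.05, and fits on the 6 arrays of either step alone called no gene.

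Without the 4 arrays that stood apart, an alternative chosen after the data were seen, 2, 3, 4, 5 and 5 members were called against 0 h at the 5 later time-points in order. The early rises of Nfkbia and Nfkbiz and the late rises of Rel, Bcl3 and Nfkbie were still called against 0 h, and Nfkb1 at 3 h, Nfkb2 at 9 h (0.45) and Nfkbib at 9 h (0.29) were not.

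Feedback inhibitors were set against subunits on each array, as a description, since the members were chosen together and the difference in timing between genes was not tested. The mean change of Nfkbia, Nfkbib and Nfkbie minus that of the 4 subunits was 0.32, 0.09 and 0.16 on the arrays of 0.5 h and 0.39, 0.16 and 0.17 at 1 h. It was -0.04, -0.04 and -0.15 at 3 h, -0.30, -0.26 and -0.24 on the arrays of 6 h, and -0.18, -0.12 and -0.17 at 9 h. On the arrays of 0 h themselves the difference was 0.12, 0.05 and -0.17. All 3 arrays of 1 h and 2 of 0.5 h lay above that range, all 3 of 6 h and 2 of 9 h lay below it, and the arrays of 3 h lay within it. The positive values at 0.5 h and 1 h rested on Nfkbia. Without it the difference lay between -0.32 and -0.19 at 0.5 h and between -0.40 and -0.26 at 1 h, and it came closest to 0 at 9 h, between -0.06 and 0.03. The negative values from 3 h on rested on Rel in the same way. With Rel left out of the subunits, the difference lay between 0.20 and 0.31 at 3 h, between 0.05 and 0.09 on the arrays of 6 h and between 0.03 and 0.12 at 9 h, beside -0.18 to 0.11 on those of 0 h.

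The time-point of the first call against 0 h differed within the inhibitors and within the subunits. It was 0.5 h for Nfkbia, 6 h for Nfkbie and 9 h for Nfkbib, and 1 h for Rel, 3 h for Nfkb1 and 9 h for Nfkb2. A first call does not date the first change, since Nfkbib was at -0.34 at 0.5 h without being called. The first calls of Rel, Nfkbib and the reported probes of Nfkb1 and Nfkb2 were lost on leaving out certain single arrays. An early and a late member of different roles, Nfkbia and Rel, and of the same role, Nfkbiz and Bcl3, are given as pairs picked after their values were seen. The change of Nfkbia minus that of Rel went from 0.40 to 1.28 on the arrays of 0.5 h to between -1.51 and -1.39 at 6 h. That of Nfkbiz minus Bcl3 went from 2.81 to 3.92 at 0.5 h to between -1.18 and -0.84 at 6 h. Across the 18 arrays, which share time-point and scan day, Nfkbia had its closest member in Nfkbiz (Pearson's r = 0.84), and Bcl3 in Rel (r = 0.92) and Nfkb1 (r = 0.89), while r between Nfkbia and Bcl3 was -0.31. Nfkbia was at 63.1% of its largest change at 0.5 h and at 11.8% at 6 h, whereas Bcl3 was at 18.5% of its largest change at 1 h and at 81.0% at 3 h. Without replicate 3 of 0 h, the change of Nfkbia at 6 h was -0.09 in place of 0.22.

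**Figure D4:**
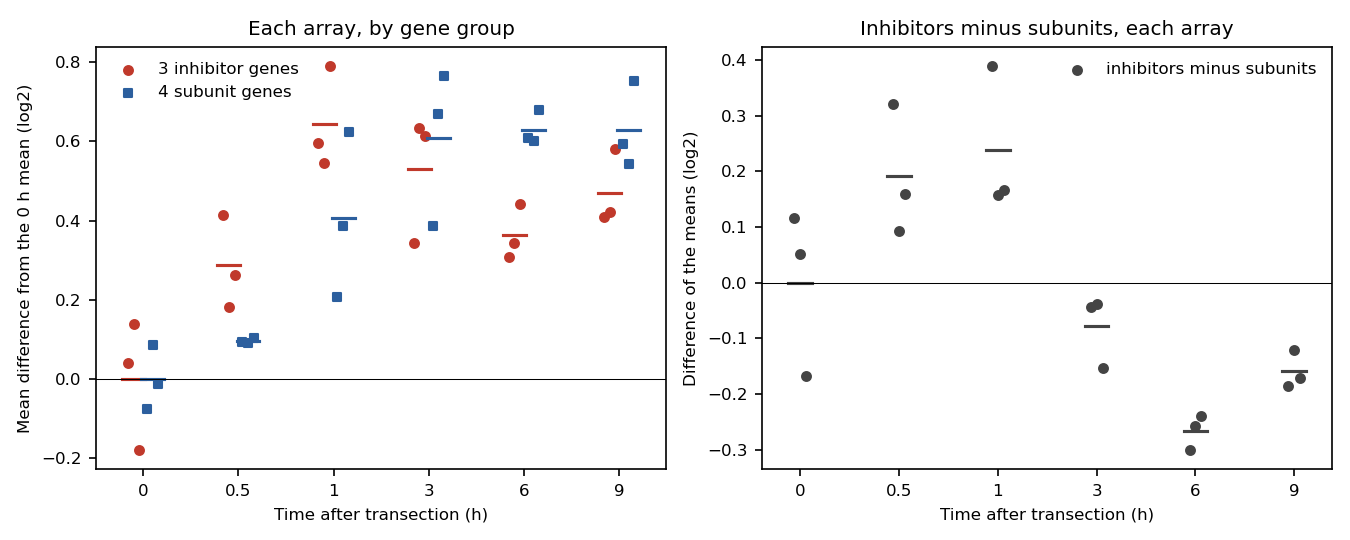
Mean change from 0 h (log2) of the inhibitors Nfkbia, Nfkbib and Nfkbie and of the subunits Nfkb1, Nfkb2, Rel and Rela on each array, and their difference, by time after resection (time-points evenly spaced, not to scale). The difference lies between -0.17 and 0.12 on the arrays of 0 h, above that range on the 3 arrays of 1 h, within it on those of 3 h and below it on those of 6 h.

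The genes closest to each called member over the 18 arrays were described by the 3 highest Pearson correlations among 5522 named genes called in the F-test, with arrays that share time-point and scan day. For Nfkbia they were Sgk1 (r = 0.97), Errfi1 and Apold1. For Nfkbiz they were Fos (r = 0.97), Egr1 and Ccn1, all of them immediate early genes. For Bcl3 they were Osmr, the oncostatin M receptor (r = 0.99), Ugdh and Sectm1b, and for Rel Birc3, an inhibitor of apoptosis and NFκB target (r = 0.98), Mcl1 and Ythdf1. Nfkb1 was closest to Nup54 (r = 0.97), Nfkbie to Jmjd6 (r = 0.94) and Nfkbib to the proteasome gene Psmd8 (r = 0.93).

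Around the members, the pathway was read from lists of its other genes, which like the members were chosen with earlier results known. Of 7 ligands, 4 were tested. Il1a and Tnf were above background on no array of 0 h and passed the filter through the later groups where they were high, so that their being called higher had to follow. Il1b and Ltb, above background on all 3 arrays of 0 h, were called higher at 6 h and 9 h. Il1b, which encodes interleukin-1β, was already 2.68 higher at 0.5 h (adjusted P-value 0.000518) and 4.43 higher at 6 h. Of 21 tested receptors and adaptors, 15 were called over the time-points, beside 36.3% of all gene names. None of them was called at 0.5 h, and 11, 10 and 12 were called higher at 3 h, 6 h and 9 h, beside 7.7%, 13.1% and 16.9% of all. Among these, at 6 h, Il1r1, the interleukin-1 receptor, was 1.91 higher, Tlr2, a receptor for bacterial lipoproteins, 2.20, Tnfrsf1a, the main TNF receptor, 1.15, and Birc3 1.79. Tradd, an adaptor of the TNF receptor, was lower at 3 h (-0.70) and 6 h (-0.40), and Tlr4, the receptor for lipopolysaccharide, and the kinase gene Ripk2 at 1 h (-0.87 and -0.50).

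Of the IκB kinases and their scaffolds, 4 of 11 tested were called over the time-points, a share near the 36.3% of all gene names, and at 6 h only Tbk1, a kinase related to IKKε, was higher (0.30, adjusted P-value 0.0261) and only Tab1, an adaptor of the kinase TAK1, lower (-0.53). The related gene Nfkbil1 was 0.31 lower at 6 h and was called over the time-points. Of 9 tested regulators of negative feedback other than the members, 7 were called over the time-points, beside the same 36.3%, with 3 higher and 3 lower at 9 h, where 16.9% of all were higher and 15.9% lower. Zc3h12a, which encodes an RNase that degrades cytokine transcripts, was 1.17 higher at 1 h, and Tnip2, an inhibitor that binds A20, was 0.92 higher at 3 h. Pdlim2, which promotes the degradation of p65, was lower from 1 h (-0.43) to 9 h (-0.92), and Nkiras1, which binds IκB proteins, was lower at 9 h (-0.77). The transcripts Relb, Traf1, Traf5 and Tnfaip3 were not analysed here.

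Known NFκB targets, of which some are also regulated by other factors, were read from a list of 24, all tested. Of these, 7 (Ccl20, Csf2, Csf3, Il6, Mmp9, Nos2 and Selp) were above background on no array of 0 h and passed the filter only through the later groups where they were high. Of the other 17, above background on all 3 arrays of 0 h, 16 were called over the time-points, and 6, 9, 12, 11 and 10 were called higher at the 5 later time-points in order, by the reported probe, beside the 36.3% over the time-points and the 4.7%, 3.89%, 7.7%, 13.1% and 16.9% higher among all gene names. Their median change was 0.45 at 0.5 h and 1.42 at 6 h, against medians of all genes near 0. Cxcl1, a chemokine for neutrophils, was 5.57 higher at 0.5 h (adjusted P-value 1.73e-09) and 6.38 at 3 h, and Ccl2, a chemokine for monocytes, 2.61 at 0.5 h and 5.08 at 3 h. Ptgs2, the inducible cyclooxygenase, was highest at 0.5 h (2.80), and Cd83 was 1.15 higher at 1 h with a change of -0.04 at 3 h. Sod2, the mitochondrial superoxide dismutase, was not called before 3 h, with 0.12 at 0.5 h, 1.34 at 3 h and 2.19 at 9 h. Ccnd1, which encodes cyclin D1, was 0.69 lower at 3 h.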

How the data were processed

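Nerve RNA was hybridised to 18 Agilent arrays of 1 colour for rat, 3 for every one of 6 time-points. The authors deposited scanner output (Feature Extraction 10.5.1.1 per the file headers) with processed signals as linear intensity, background-subtracted and detrended, and a matrix of log2 values with the same distribution on all arrays, used as an alternative.

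Control and outlier spots were left out, log2 signals were set relative to each array's 75th percentile, and repeat spots were averaged per probe. Tested probes were those well above background on all 3 arrays of a time-point. Accessions and symbols were matched to RefSeq (16336 probes by accession, 3707 by symbol and 1074 by an older symbol, on the same chromosome). Positions are those of the files on rn4, for which exons and untranslated regions were not analysed here. Where a gene had more than 1 tested probe, values are those of the probe with the highest mean, and a call of any tested probe made the gene called. All 6 time-points were fitted in 1 model with limma 3.58.1 in R 4.3.3, and adjusted P-values are Benjamini-Hochberg over 32115 probes. The fits were tested on simulated data. Figures were drawn with matplotlib 3.10.9 in Python 3.11.15.

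The members and lists were chosen with earlier results of these data known. The text names the members, genes of the pathway lists called in the F-test, markers, and the 3 genes most like each called member. Alternatives were normexp, quantile and median scaling, the matrix, other filters and thresholds, blocks for replicate number, scan day and slide, array weights, a trended prior, fewer arrays, and leaving out each array. Precision is limited by having 3 arrays at a time-point and, for dim probes, by background.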

Additional observations from a re-analysis of the deposited data

How the results depend on the processing

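With 3 arrays at a time-point, calls depended on the choices made for members that changed by less than 2-fold, such as Nfkb1 and Nfkbib, and also for Rel and Nfkbia. Under normexp, which called 1926 gene names at 6 h against 0 h where the report has 7187, 1, 3, 3 and 4 members were called against 0 h at 0.5, 3, 6 and 9 h, 1 at 3 h against 1 h and 0 at 6 h against 3 h. With a 2-fold minimum it was 4 members over the time-points, 3 and 4 at 6 h and 9 h against 0 h, 3 at both against 1 h and 0 at 6 h against 3 h. Fits on 6 arrays called 1 member at 0.5 h, as on the arrays of 1 scan day, and 0 at 3 h against 1 h and at 6 h against 3 h. Only probes above background on all arrays gave 5 members at 3 h against 1 h, and array weights gave 5 there and 2 at 6 h against 3 h, where removing the 4 arrays gave 0. The cause was not tested.

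Leaving out each array gave 7 to 9 members over the time-points, 2 to 3, 2 to 3, 5 to 6, 5 to 5 and 5 to 7 against 0 h at the 5 later time-points in order, and 3 to 5, 4 to 7 and 6 to 7 against 1 h at 3, 6 and 9 h. It gave 0 to 2 at 6 h against 3 h, and 0 at 1 h against 0.5 h and at 9 h against 6 h. Of 4058 single values 3909 kept their call, among them 75 uncalled values whose sign changed, 109 lost a call, 40 gained 1 and 0 called values reversed.

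The replicate block gave 8 members over the time-points, 4 at 3 h and 7 at 6 h against 1 h, and 2 at 6 h against 3 h, and the counts of the report elsewhere. Deviations from the group means had a median correlation of 0.07 over 45 pairs of arrays with the same number, from -0.26 to 0.56. Over 90 pairs with different numbers it was 0.01, from -0.52 to 0.38. The numbers were not used to pair arrays. A random block for slide kept the counts of the report. A block for scan day could not be fitted for 1 h to 9 h against 0 h, 1 h against 0.5 h or over the time-points. In the other contrasts it kept the counts of the report. It set apart only replicate 3 of 9 h, the array scanned on a day of its own, so the kept counts do not test an effect of scan day. Normexp moved the median change of all probes to 0.44 at 3 h, and a shift to the median moved it to -0.16 at 0.5 h, where higher calls were 33.1% instead of 70.7% (33.8% instead of 49.5% at 6 h).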
